A study of Mus musculus with 10 samples.

Results

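The genes described here are p53 (Trp53), its regulators and a small group of its direct targets. The rule listed 10 genes (Trp53, Mdm2, Mdm4, Ccng1, Ckap2, Sesn2, Bax, Bbc3, Phlda3 and Eda2r) and took each probe set whose only platform gene symbol was one of them. By that rule 8 of the 10 genes had a probe set, 1 each, out of 22180 genes in all. Trp53 and Bax, the pore-forming effector of mitochondrial apoptosis, were not analysed here. Mouse embryos were taken at E16.5, and the nasal respiratory epithelium was cut from their paraffin sections with a laser. Each embryo gave RNA for a single Affymetrix array that covers whole transcripts. The wild-type group (WT) held 5 embryos, all but WT 3 labelled female. The triple knockout group (TKO) held 5 embryos, of which TKO 1 and TKO 3 were labelled female and the others male, and was null at 3 loci, written miR-34a-/- for the first, miR-34b/c-/- for the second and miR-449a/b/c-/- for the third. The labels write all alleles as null, with no Cre or other driver, and give no strain and no treatment. Litters are not given, so that p-values measure the spread between these 10 embryos. Levels are given as log2 values after RMA, and the number of arrays limits their precision.

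p53 is a transcription factor that stressed cells stabilise, and its targets halt the cell cycle, repair DNA, restrain growth or start apoptosis. It is held in check by the ubiquitin ligase Mdm2 and by the related protein Mdm4, and since Mdm2 is itself a p53 target the circuit is a feedback loop. The miR-34 genes are p53 targets too. Multiciliated cells of the airway are rich in miR-34 and miR-449, which act there on cell-cycle exit and on the building of basal bodies. The mature 5' strands of the deleted microRNAs are printed to show their seed. They lie at chr4:150068473-150068494 (miR-34a-5p, plus strand), chr9:51103610-51103632 (miR-34b-5p, minus strand), chr13:113037549-113037570 (miR-449a-5p, plus strand) and chr13:113036008-113036028 (miR-449c-5p, plus strand). RefSeq (GRCm38.p6) held 4 of them, and miR-34c-5p and miR-449b-5p are named only. Sequences run 5′ to 3′ and capitals mark the seed, bases 2 to 8.

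mmu-miR-34a-5p: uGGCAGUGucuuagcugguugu
mmu-miR-34b-5p: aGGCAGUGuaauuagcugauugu
mmu-miR-449a-5p: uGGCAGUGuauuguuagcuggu
mmu-miR-449c-5p: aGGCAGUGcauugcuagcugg

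All 4 carried the same seed, GGCAGUG. On the arrays, the probe set of Mir449c fell by 3.41 on the log2 scale (limma adjusted p = 2.6e-05) and that of Mir449a fell by 1.81 (adjusted p = 0.000442), with no overlap between genotypes, as the labels imply. Adjusted p of the microRNA genes come from limma without the filter on dim genes that is given below. Mir449b fell by 0.33 (limma adjusted p = 0.0318) but stayed bright, with means of 12.17 in WT and 11.79 in TKO, and Mir34b (5.76 and 5.49) did not pass. For both, every TKO array lay below every WT array, as for 2.07% of all genes tested. Both stayed above the filter in embryos labelled null at these loci, against what the label alone would give, and whether their probes lie within the deleted sequence was not tested. Mir34a, the member of the deleted genes best known as a p53 target, ranged over the WT arrays from 3.34 to 3.68 and over the TKO arrays from 3.09 to 3.75, below the filter on dim genes at 4.58, as was Mir34c, so their probe sets do not check the genotype. Of 16635 genes that passed that filter, limma with labelled sex in the model called 5.51% at an adjusted p below 0.05, of which 730 rose in TKO and 186 fell. The epithelial markers Foxj1 (10.9 in WT and 11.0 in TKO), Krt8 (11.6 and 11.6) and Epcam (8.55 and 8.68) were bright in both genotypes. RNA of other tissues was present as well: all 11 mesenchymal markers measured, such as Col1a1 (10.8 and 10.6), were above the filter, and in the model all 11 had a log2 change below 0, of which 1, Col3a1, passed. Of 10 skeletal muscle markers 2 fell (Tnnt3 and Ttn), and of 7 endothelial markers tested 1 fell (Tie1), where 1.12% of all genes tested fell. None of either list had a log2 change above 0 (medians -0.65 and -0.32). Above 0 stood 1 of 8 leukocyte, 1 of 5 glial and 3 of 6 cartilage markers tested. A score over 6 such marker lists ran from -0.33 to 0.34 in WT and from -0.41 to 0.16 in TKO (exact two-sided permutation p = 0.349). Unlike the changes from the model, this score and its p were not adjusted for sex. The score left out the olfactory neuron lineage, whose 9 markers were all above the filter. The mean of those 9, each centred on its own mean, ran from -0.64 to 1.33 in WT, highest on WT 5. In TKO it ran from -0.68 to 0.57.

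The regulators Mdm2 and Mdm4 and the targets Ccng1 and Ckap2 had higher means in TKO and the apoptotic target Bbc3 a lower one, while Sesn2, Phlda3 and Eda2r had log2 changes of 0.18, -0.03 and -0.08. Of the 8, only Ckap2 passed the threshold of limma across all genes tested. Of the 8 genes, 7 passed the filter on dim genes, and Eda2r did not. Among those 7, limma called 1 higher (Ckap2) and none lower, where 4.39% of all genes tested were called higher and 1.12% lower. At an unadjusted p below 0.05 stood 5 of the 7, 4 of them higher and 1 lower (Bbc3), where 20.9% of all genes did. The log2 changes of the 7 ran from -0.64 to 0.75 with a median of 0.32, and 5 of them lay above 0, where 49.8% of all genes did; the median over all genes tested was -0.00052. In RNA from captured tissue, fewer cells of a type and less RNA per cell cannot be told apart.

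**Figure D1:**
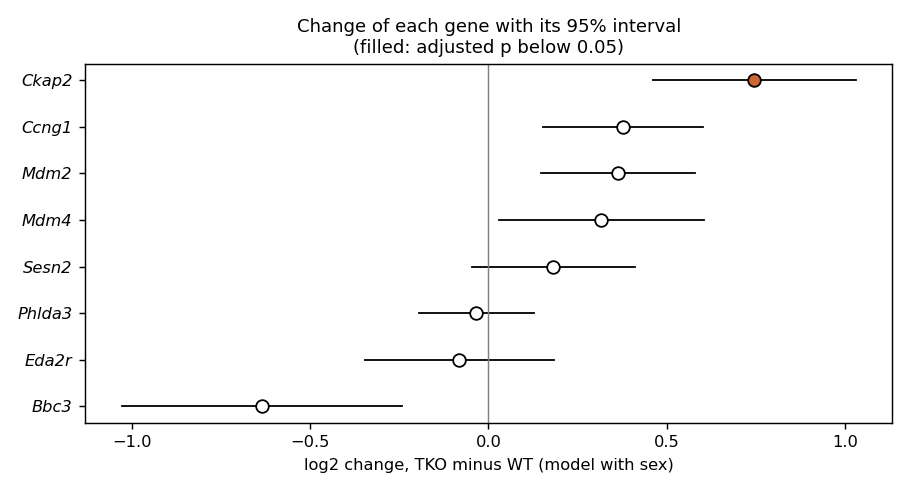
Log2 change (TKO minus WT, from limma with sex in the model) of each of the 8 genes on the x axis, with its 95% interval as a line; a filled circle marks an adjusted p below 0.05. Ckap2 at 0.75 is the only filled circle, the intervals of Ccng1, Mdm2 and Mdm4 lie above 0, and that of Bbc3 lies below 0.

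Mdm2, the ligase that marks p53 for degradation, was 7.64, 7.91, 7.85, 7.75 and 7.85 in WT 1 to WT 5. In TKO 1 to TKO 5 it was 8.15, 8.44, 8.20, 8.10 and 7.97. Every TKO array lay above every WT array, with TKO 2 the highest and TKO 5 the closest to WT. Arrays separated in that direction for 5.54% of all genes tested, and for 2 of the 7 genes here, Mdm2 and Ckap2. None of the 7 separated with TKO below, as 2.07% of all genes did (7.6% in either direction). The WT mean was 7.80 ± 0.10 and the TKO mean 8.17 ± 0.17 (SD, n = 5 each). With sex in the model the log2 change was 0.36 ± 0.10 (SE), a 1.29-fold difference with a 95% interval from 1.11 to 1.49, and it missed the threshold (limma adjusted p = 0.0549). It passed in some other settings, among them the model without sex (0.37, adjusted p = 0.0253) and the model without TKO 5 (0.40, adjusted p = 0.0371). With the score of other tissues' markers as a covariate the log2 change was 0.18 (adjusted p = 0.526).

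Mdm4, the paralog of Mdm2 that binds p53 and blocks its activation of genes, was less regular. Its WT values were 7.91, 7.61, 8.00, 7.98 and 8.16, and its TKO values were 8.34, 8.45, 8.32, 7.93 and 8.03. TKO 1, TKO 2 and TKO 3 lay above all WT arrays, while TKO 4 and TKO 5 lay among them. The log2 change of 0.32 ± 0.13 (SE) did not pass (limma adjusted p = 0.193), and its 95% interval ran from 0.03 to 0.60.

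**Figure D2:**
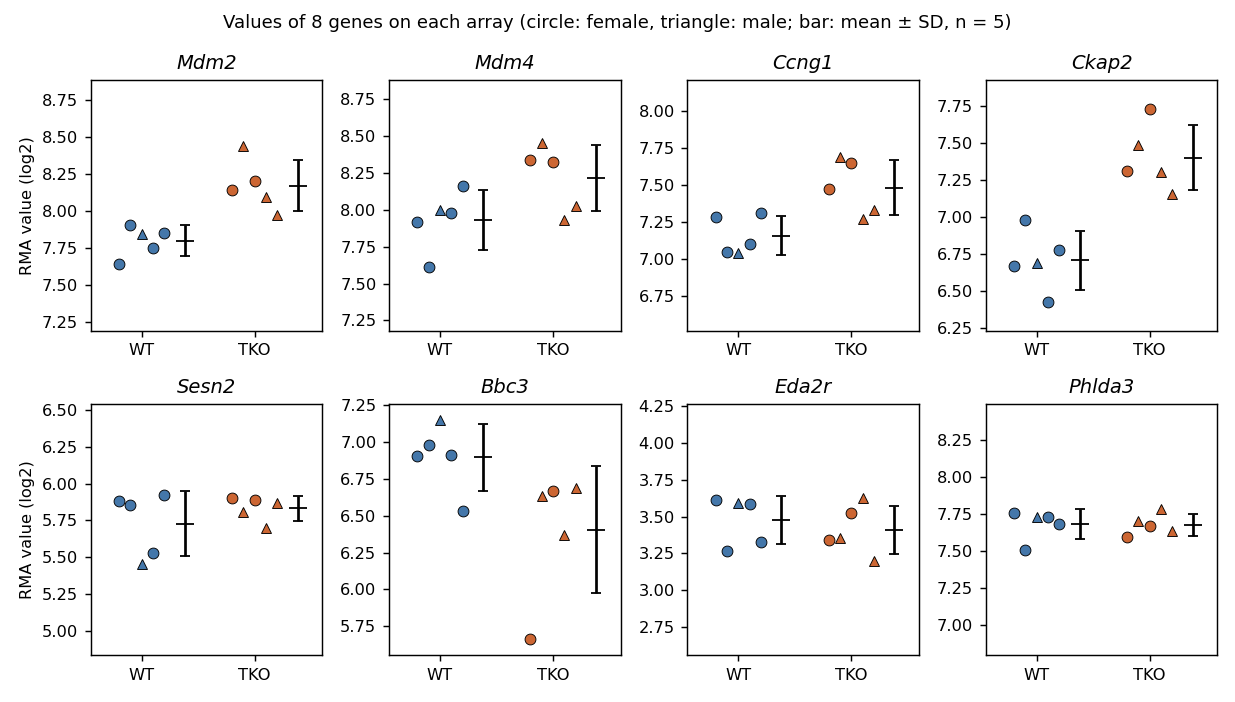
RMA values (log2, y axis, 1 span of values for all panels) of the 8 genes on each of the 10 arrays, WT in blue and TKO in orange, with circles for females, triangles for males and bars for the mean ± SD of 5 arrays. The genotypes separate for Mdm2 and Ckap2, and overlap for the other 6 genes; for Bbc3 TKO 1 sits apart at 5.67.

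Ccng1 encodes cyclin G1, a p53 target that brings the phosphatase PP2A to Mdm2. On the WT arrays it was 7.29, 7.05, 7.04, 7.10 and 7.31, and on the TKO arrays 7.47, 7.69, 7.65, 7.27 and 7.33. Of the TKO arrays 4 lay above the highest WT array, and TKO 4 lay below it. The log2 change was 0.38 ± 0.10 (SE), 1.30-fold, and missed the threshold (limma adjusted p = 0.0552). Without TKO 4 it passed at 0.41 (adjusted p = 0.0477) and without WT 5 at 0.40 (adjusted p = 0.0403).

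Ckap2, a microtubule-associated protein of the mitotic spindle that is also listed among p53 targets, had the largest change of the 8 genes. It was 6.67, 6.98, 6.69, 6.43 and 6.78 in WT and 7.31, 7.49, 7.73, 7.31 and 7.16 in TKO. The lowest TKO array, TKO 5, exceeded the highest WT array, WT 2. The WT mean was 6.71 ± 0.20 and the TKO mean 7.40 ± 0.22 (SD, n = 5 each), and the exact two-sided permutation p was 0.00794, the smallest that 5 against 5 arrays can give. With sex in the model Ckap2 rose 1.68-fold (95% interval 1.38 to 2.04, limma adjusted p = 0.00774). The call was lost without TKO 3, the array with the highest value (log2 change 0.62, adjusted p = 0.0519), and among females only (0.81, adjusted p = 0.108). It was also lost with the score of other tissues' markers as a covariate, where the change was 0.45 (adjusted p = 0.141).

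Ckap2 changed in the same direction as the genes of mitosis, a list chosen with earlier results of these data known. Of 23 mitotic genes tested, 13 rose and none fell, with a median log2 change of 0.43, where 4.39% of all genes tested rose. Cdca8, which helps to seat Aurora B on centromeres, rose 1.92-fold, Top2a, the topoisomerase of dividing cells, rose 1.71-fold, and the spindle kinase gene Aurka rose by 0.58 on the log2 scale. The paralog Ckap2l, also a spindle protein, rose from 7.57 ± 0.13 to 7.98 ± 0.10 (SD, n = 5 each), 1.37-fold (limma adjusted p = 0.00741), and missed the threshold without WT 3 (0.41, adjusted p = 0.0824) or TKO 3 (0.42, adjusted p = 0.0518). Its call was also lost in females only (0.41, limma adjusted p = 0.143) and with the score of other tissues' markers (0.33, adjusted p = 0.155). Kif18a, a kinesin that dampens chromosome movement (log2 change 0.99), and Cenpf, a kinetochore protein (0.70), rose too. The mean of the mitotic genes, each centred on its own mean, ran from -0.39 to -0.04 over the WT arrays and from 0.13 to 0.31 over the TKO arrays. That score separates the genotypes, so a model holding both cannot tell them apart: with it as a covariate 0 genes of the 16635 passed in limma (1288 at an unadjusted p below 0.05), and the Ckap2 change was 0.26 (adjusted p = 0.85).

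The promoters of Mdm2, Ccng1 and Ckap2 are shown because these genes had the 3 smallest p of the 8 and were also the 3 of the 8 whose windows held a p53 half-site. Bbc3, with the next smallest p, held none, and whether half-sites go with a change was not tested. A match to the half-site consensus, which reads the same on both strands, was found in the window from 250 bases before to 50 after the start for 9.56% of all RefSeq genes (GRCm38.p6, 27018 genes). Trp53 and Bax, not measured here, held a match as well, so that 5 of the 10 listed genes did. None of the 10 held a full p53 response element, 2 half-sites with a spacer of 0 to 13 bases, which 0.074% of all genes held. The CHR element (TTTGAA), at which cell-cycle promoters bind repressor and activator complexes, was found on either strand in 20.2% of all genes and in 1 of the 8 measured genes, Ckap2. The CCAAT box (CCAAT), the site of NF-Y, was found in 6 of the 8 and in 41.1% of all genes. A match is a description of letters in this window and not a bound site, and p53 sites can lie outside it. The 250 bases before the start follow, 5′ to 3′ on the gene's strand and credited to RefSeq (GRCm38.p6), for Mdm2 (chr10:117710759-117711008, minus strand), Ccng1 (chr11:40755287-40755536, minus strand) and Ckap2 (chr8:22185820-22186069, minus strand). Capitals mark the half-sites, the CHR element and the CCAAT boxes, the last as CCAAT or as ATTGG on the other strand.

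Mdm2: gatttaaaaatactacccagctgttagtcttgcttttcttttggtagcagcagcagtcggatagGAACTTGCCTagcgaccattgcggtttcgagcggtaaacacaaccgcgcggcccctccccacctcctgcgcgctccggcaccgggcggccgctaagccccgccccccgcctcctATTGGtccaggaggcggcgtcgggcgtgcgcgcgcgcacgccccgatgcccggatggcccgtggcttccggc
Ccng1: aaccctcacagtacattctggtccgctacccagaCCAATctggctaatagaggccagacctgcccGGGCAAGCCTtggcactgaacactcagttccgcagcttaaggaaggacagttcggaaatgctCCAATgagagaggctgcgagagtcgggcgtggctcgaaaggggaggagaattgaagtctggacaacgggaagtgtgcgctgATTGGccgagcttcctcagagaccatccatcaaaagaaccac
Ckap2: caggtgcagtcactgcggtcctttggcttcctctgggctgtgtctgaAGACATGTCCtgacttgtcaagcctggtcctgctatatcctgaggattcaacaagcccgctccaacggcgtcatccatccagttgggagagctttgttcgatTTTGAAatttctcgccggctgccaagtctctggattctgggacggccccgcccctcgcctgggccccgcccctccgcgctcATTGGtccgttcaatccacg

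The half-site of Mdm2 read GAACTTGCCT, that of Ccng1 GGGCAAGCCT and that of Ckap2 AGACATGTCC, and their first bases lay at -186, -185 and -203 from the start. Ckap2 also held the CHR element at -101 and a CCAAT box at -20. The windows of Mdm4, Phlda3 and Eda2r held no half-site, nor did those of Sesn2 and Bbc3.

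Bbc3, also called Puma, encodes a BH3-only protein that frees Bax to open mitochondria. In WT it was 6.91, 6.98, 7.15, 6.91 and 6.53, and in TKO 5.67, 6.63, 6.66, 6.37 and 6.69. TKO 1 was the lowest array by far, WT 5 lay below 3 of the TKO arrays, and no TKO array reached the WT mean of 6.89. The means were 6.89 ± 0.23 and 6.40 ± 0.43 (SD, n = 5 each), and the log2 change with sex in the model was -0.64 ± 0.18 (SE, limma adjusted p = 0.0629). Its size rested on TKO 1: without that array the change was -0.37 (adjusted p = 0.214), while without TKO 3 it passed at -0.88 (adjusted p = 0.0254) and without WT 5 at -0.70 (adjusted p = 0.0375). With the score of other tissues' markers as a covariate it was -0.78 (adjusted p = 0.203).

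Sesn2, a leucine-sensing stress protein that restrains mTORC1, was 5.88, 5.86, 5.45, 5.53 and 5.93 in WT and 5.90, 5.81, 5.89, 5.70 and 5.87 in TKO. WT 3 and WT 4 were lower than every other array, WT 5 was the highest array, and WT 1 and WT 2 lay among the TKO arrays. The log2 change was 0.18 with a 95% interval from -0.05 to 0.41 (limma adjusted p = 0.35), and it was 0.09 without WT 3. Phlda3, a small lipid-binding protein that opposes Akt, varied little. Its values ran from 7.51 to 7.75 in WT and from 7.59 to 7.78 in TKO, the log2 change was -0.03 and the 95% interval ran from -0.20 to 0.13 (limma adjusted p = 0.842). Eda2r, the receptor of the ectodysplasin isoform EDA-A2, was dim on all arrays, at 3.27 to 3.61 in WT and 3.20 to 3.62 in TKO, and no difference was detectable (log2 change -0.08, 95% interval -0.35 to 0.18, limma without the filter, adjusted p = 0.807). Although Eda2r lies on the X chromosome, its female minus male difference was -0.03 (adjusted p = 0.975). None of the 8 genes passed for sex, where 0.0361% of all genes tested did; the widest of these differences was that of Bbc3 (-0.36, limma adjusted p = 0.686).

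**Figure D3:**
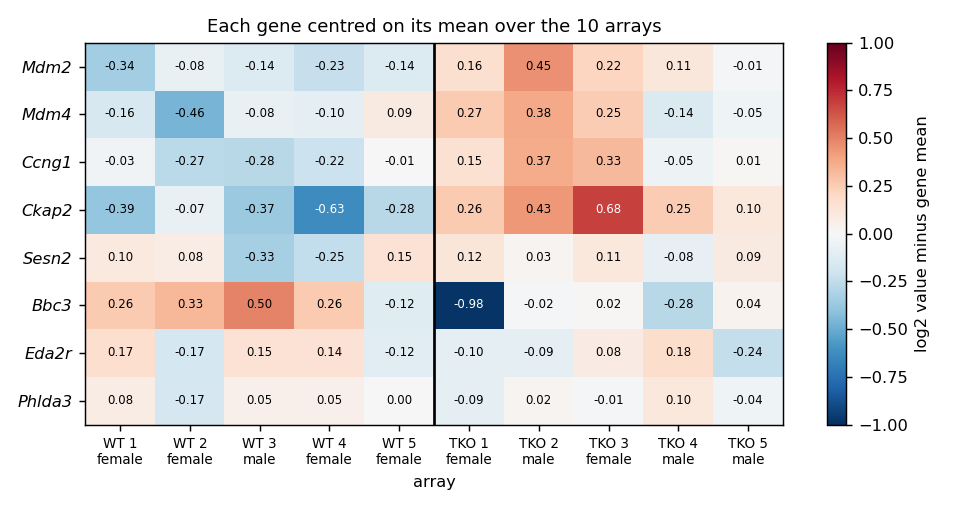
Each row is 1 of the 8 genes and each column 1 array with its labelled sex, and colour and number give the log2 value minus the gene's mean over the 10 arrays. TKO 2 is the highest array for Mdm2 (0.45), Mdm4 (0.38) and Ccng1 (0.37), TKO 3 for Ckap2 (0.68), and the deepest value is that of Bbc3 on TKO 1 (-0.98).

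The embryos were not alike within a genotype. TKO 2 held the highest value of Mdm2, Mdm4 and Ccng1, and TKO 3 the highest of Ckap2. Averaged over the 8 genes, each centred on its mean, TKO 2 and TKO 3 stood at 0.20 and 0.21, while TKO 1, TKO 4 and TKO 5 stood at -0.03, 0.01 and -0.01 and the WT arrays between -0.12 and -0.04. That average joins genes that moved in opposite directions. On TKO 1, 5 of the 8 genes lay above their own mean, while Bbc3 stood at -0.98. Mdm2, Mdm4, Ccng1 and Ckap2 stood there at 0.16, 0.27, 0.15 and 0.26. The score of other tissues' markers was -0.23, -0.06 and -0.41 on TKO 1, TKO 2 and TKO 3 and 0.15 and 0.16 on TKO 4 and TKO 5. For Mdm4 and Ccng1, the arrays with the higher score were thus the TKO arrays nearest to WT; with the score as a covariate the log2 changes of these 2 genes were 0.36 and 0.35 (limma adjusted p = 0.445 and 0.328). Among WT arrays the score was lowest on WT 2 (-0.33), which held the lowest Mdm4 and the highest Mdm2 and Ckap2 of its genotype.

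Over the 10 arrays, the genes whose values followed Ckap2 most closely among all genes tested were Scn4b, Suco and Dnah8 (Pearson r = 0.98 for each). For Mdm2 they were Pi4kb, Cep57 and Cep135 (0.98, 0.97 and 0.96), of which Cep57 and Cep135 are centrosome proteins, and for Ccng1 Pak1ip1, Gsta4 and Mettl6 (0.97, 0.96 and 0.96). After genotype and sex were removed these coefficients lay between 0.89 and 0.93. They are the highest over all genes tested, share the arrays' genotype difference, and are given as a description only.

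Of 44 further p53 targets tested, 2 rose, none fell and 42 did not pass, near the 4.39% of all genes that rose, and their median log2 change was 0.04. At an unadjusted p below 0.05 stood 14 of the 44, where 20.9% of all genes did. Pidd1, the scaffold of the complex that activates caspase-2, was 7.89 to 8.49 in WT and 8.42 to 8.79 in TKO and rose 1.40-fold (limma adjusted p = 0.0118); the call was lost without WT 3 (0.37, adjusted p = 0.133), in females only (0.37, adjusted p = 0.146), without sex in the model (0.36, adjusted p = 0.0849) and with the score of other tissues' markers as a covariate (0.45, adjusted p = 0.163). Rps27l, a ribosomal protein that stabilises p53, was 9.34 to 9.53 in WT and 9.59 to 9.80 in TKO and rose 1.23-fold (adjusted p = 0.0296). The Rps27l call was lost without WT 1, WT 3, WT 4, TKO 2 or TKO 3 (log2 change 0.25 to 0.29), in females only (0.27), without the intensity trend (adjusted p = 0.055) and with the score of other tissues' markers, where the change was 0.19 (adjusted p = 0.362). Its near-identical paralog Rps27 may share its probes. Cdkn1a, the p21 inhibitor and best-known arrest target, was 10.38 to 10.76 in WT and 10.72 to 11.03 in TKO, and its log2 change of 0.30 just missed the threshold (limma adjusted p = 0.0501). It passed in 6 of 20 other settings, among them without WT 5 (0.33) or TKO 1 (0.40). Without WT 3 or TKO 3 the Cdkn1a change was 0.24 (limma adjusted p = 0.277 and 0.214). It was 0.24 without sex in the model (adjusted p = 0.101). With the score of other tissues' markers it was 0.23 (adjusted p = 0.393). Polh, a DNA polymerase that copies past damage (0.53), Gtse1, a G2 regulator that moves p53 out of the nucleus (0.28), and Sfn, the 14-3-3 sigma protein (-0.43), did not pass. Every TKO array of Sfn lay below every WT array, as for 1 of the 44 targets and 2.07% of all genes tested.

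Of 39 regulators and relatives of p53 tested, 1 rose, Topors, a ligase that acts on p53 (7.38 ± 0.08 to 7.61 ± 0.08, SD, n = 5 each, 1.20-fold, limma adjusted p = 0.0478), and 38 did not pass, with a median log2 change of 0.02. Of all genes tested 4.39% rose and 1.12% fell. At an unadjusted p below 0.05 stood 9 of the 39, near the 20.9% of all genes. The Topors call was lost in 15 of 20 other settings, among them without each array but WT 5. The transcription factor gene Yy1 (0.27), the deacetylase gene Sirt1 (0.33), the kinase genes Hipk2 (0.24) and Atr (0.30) and the deubiquitinase gene Usp10 (0.18) had the next smallest p. The family member Trp63, which marks basal cells, had a log2 change of -0.21 (limma adjusted p = 0.347).

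Of 22 BCL2 family, caspase and inhibitor genes tested, 3 rose, 1 fell and 18 did not pass, where 4.39% of all genes rose and 1.12% fell, and the median log2 change was 0.06. At an unadjusted p below 0.05 stood 7 of the 22, where 20.9% of all genes did. Hrk, a BH3-only protein like Bbc3, was 5.21 to 5.59 in WT and 6.05 to 6.27 in TKO and rose 1.57-fold (limma adjusted p = 0.00393). Diablo, which displaces the inhibitors of caspases, was 8.36 to 8.63 in WT and 8.92 to 9.22 in TKO and rose 1.48-fold (adjusted p = 0.00195). Birc2, one of those inhibitors, rose 1.49-fold (7.18 to 7.70 in WT and 7.78 to 8.06 in TKO, adjusted p = 0.0136), and its neighbour and paralog Birc3 fell by 0.42 on the log2 scale (adjusted p = 0.0233). Birc2 missed the threshold without WT 3 (0.52, limma adjusted p = 0.121) or TKO 3 (0.56, adjusted p = 0.0694), and Birc3 without WT 3 (-0.43), TKO 1 (-0.39) or TKO 3 (-0.45). In females only, Hrk, Birc2 and Birc3 missed it too (limma adjusted p = 0.0764, 0.19 and 0.17), while Diablo passed (0.0216). With the replicate number as a block Birc3 missed it as well (limma adjusted p = 0.0721). Htra2 (0.36), a mitochondrial protease, and the BH3-only gene Bik (-0.21) did not pass. Hrk, Diablo, Birc2 and Birc3 missed the threshold with the score of other tissues' markers as a covariate, at log2 changes of 0.56, 0.49, 0.54 and -0.42 (limma adjusted p from 0.0647 to 0.194).

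Among 18 paralogs and partners of the listed genes, Ckap2l, which is also on the mitotic list, was the 1 that rose, and none fell. Of all genes tested 4.39% rose and 1.12% fell. The median log2 change of the 18 was 0.07. Gak, a kinase that binds cyclin G (0.23), the PP2A subunit gene Ppp2r5c (0.16), Bok, a relative of Bax (0.18), and Sesn1, the paralog of Sesn2 (-0.18), did not pass.

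**Figure D4:**
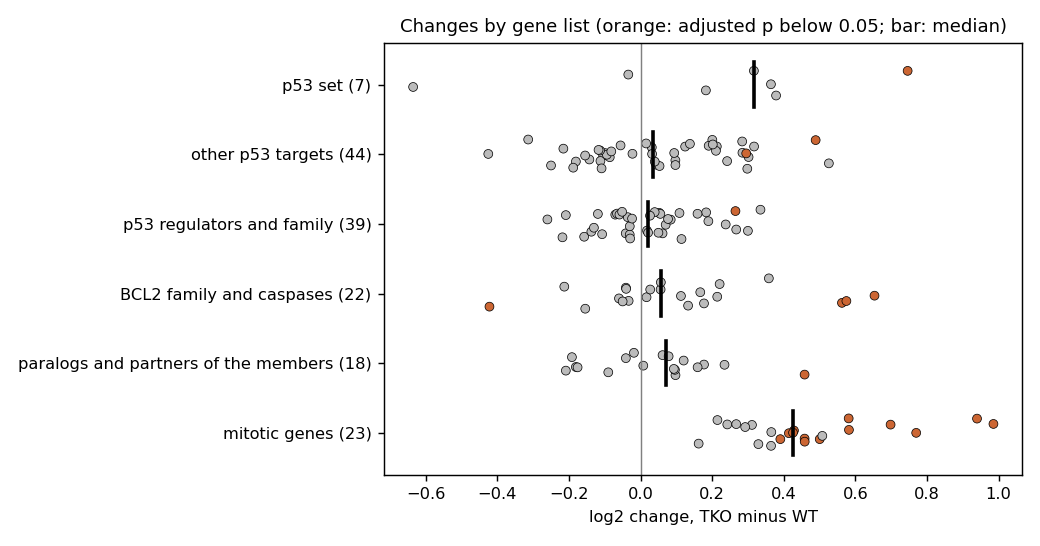
Log2 change (TKO minus WT, x axis) of each gene tested, by list, with the number of genes in brackets; orange marks an adjusted p below 0.05, the bar is the list's median, and vertical scatter within a list has no meaning. The mitotic genes lie to the right of 0 (median 0.43), while the other p53 targets and the p53 regulators centre near 0 (medians 0.04 and 0.02).

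**Figure D5:**
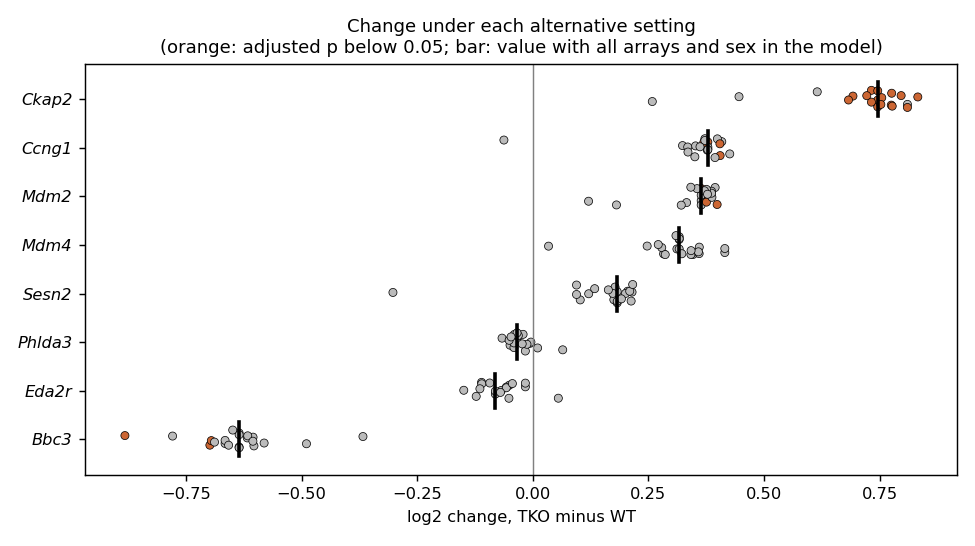
Log2 change (TKO minus WT, x axis) of the 8 genes under each alternative setting, 1 point per setting, orange where the adjusted p was below 0.05, with a bar at the value from all arrays with sex in the model. Ckap2 is called in most settings, Mdm2, Ccng1 and Bbc3 in a few, and Mdm4, Sesn2, Phlda3 and Eda2r in none.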

How the data were processed

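Captured epithelium of 10 embryos was measured on 10 arrays. Per the submitters' processing notes, the authors summarised the arrays by RMA with Affymetrix Expression Console, for which no version was given in the sources used here. The range of the deposited values, 1.50 to 13.7, is that of log2 values. Scanner files were not used here, so no detection call is given. Of 41345 probe sets, 23521 had 1 gene symbol, 1814 several and 16010 none in the platform annotation; the brightest probe set of each of 22180 genes was kept, and a filter at the 25th percentile of the mean removed dim genes. Genotypes were tested in R 4.3.3 by limma 3.58.1 (labelled sex and genotype, intensity trend, two-sided, Benjamini-Hochberg over all genes, threshold 0.05); folds come from this model, while means and SDs are unadjusted. On data simulated from the 16635 genes for TKO against WT, log2 changes of 0.25, 0.5, 1 and 2 were called in 5.0%, 52.4%, 92.0% and 98.6%. The genes and lists were chosen with earlier results of these data known. Named were all listed genes and, from each other list, up to 6 with the smallest p, calls first; the 3 genes most like a listed gene by Pearson correlation were named for Ckap2, Mdm2 and Ccng1. Of the marker lists, epithelium held no call in 11 genes tested, and cartilage (6), leukocyte (8), glia (5) and olfactory neuron (9) none. Other settings are listed in the closing section. Figures used matplotlib 3.10.9.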

Additional observations from a re-analysis of the deposited data

Results flagged for a closer look

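In groups of 5 arrays, 5 genes had an array far from the other 4 of its genotype, among 88 groups looked at, where chance gives about 1 in 20. None of them was one of the 8 p53 genes. Mir449b was 12.1 on TKO 1, with the next TKO array at 11.8. Hipk2, a kinase that acts on p53, was 8.07 on TKO 4, with the next at 8.29. Diablo was 8.63 on WT 3, with the next WT array at 8.42, and Birc2 was 7.70 on WT 5, with the next at 7.30. Trp63 was 7.96 on WT 2, with the next WT array at 7.48.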

How the results depend on the processing

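Alternatives were the model without sex, females only, no filter or a 50th percentile filter, arrays centred on their median, no intensity trend, array weights, averaged probe sets, the score of other tissues' markers or (chosen after seeing the data) the mitotic score as a covariate, a replicate block, and each array left out. Genes called higher, 730, were 48 in females only, 85 with the other tissues' score and 0 with the mitotic score, and ran from 192 (without WT 3) to 886 (without WT 5) with an array left out, at 472 without TKO 1 and 244 without TKO 3. Genes called lower, 186, were 121 with centred arrays, 4 in females only, 10 with the other tissues' score and 0 with the mitotic score, and ran from 19 (without WT 3) to 398 (without WT 5). The labels do not say whether replicate numbers pair embryos, and the arrays were treated as unpaired (correlations of same-numbered deviations from -0.13 to 0.38). With the replicate number as a block, 282 genes were lower and 14 passed for sex. Mdm2 then passed at 0.39 beside Ckap2, so that 2 of the p53 genes were higher. Of those genes, 2 were called higher without sex, 3 with the 50th percentile filter, 3 with array weights and 0 in females only or with either score, and 0 (without TKO 3) to 2 with an array left out; 1 (Bbc3, -0.70) was called lower with array weights, and 0 to 1 with an array left out. Genes called for sex, 6, were 3 with the 50th percentile filter and 3 with the other tissues' score, and ran from 4 to 79 (without WT 4). Signs turned for Phlda3 (0.065) and Eda2r (0.055) with the other tissues' score, and for Ccng1 (-0.063), Sesn2 (-0.30) and Phlda3 (0.010) with the mitotic score. Centring moved the median over all genes to 0.03. Without WT 3, the 1 WT male, sex and genotype are separated in females alone.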
